A study of Mus musculus with 12 samples.

Results

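Rprml, Clca6, Gabrb2, Apol8, Krt8 and Krt18 are 6 genes, out of 22923 gene symbols in the expression files, that had higher values in hind limb muscle of αB-crystallin/HspB2 knockout (KO) mice than of wild-type (WT) mice on both diets, and that lie away from the deleted locus. They were picked by these KO and WT values, so every KO to WT difference of the 6 genes given here is a description and was not tested. RNA from proximal hind limb skeletal muscle of male FVB/N mice at 22 weeks of age was sequenced in 12 samples, 3 in each of 4 groups, which were WT on normal chow, WT on high fat diet, KO on normal chow and KO on high fat diet. The WT samples carry Flox in their titles, and the authors describe the WT mice as littermates. The KO mice lack both Cryab, the gene of αB-crystallin, and Hspb2 in every tissue. A difference in muscle can therefore not be tied to the loss of either gene or to muscle alone. Groups were taken from the titles, since the genotype label of 6 samples goes against the title. Values are FPKM, counts of fragments scaled to transcript length and to the mapped fragments of the library, which can be compared between genes. The tests were run on genes that reached 1 FPKM in 3 or more samples, and this filter was passed by Rprml, Clca6 and Krt18 but not by Gabrb2, Apol8 and Krt8. Clca6 and Krt18 reached 1 FPKM in KO samples alone and so passed the filter through KO. Their highest WT values were 0.136 and 0.264 FPKM. In whole muscle, more cells of a type and more RNA per cell cannot be told apart.

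The 6 genes belong to unrelated families. Krt8 and Krt18 encode the type II and type I keratins that pair into the intermediate filaments of simple epithelia such as liver and gut, whereas muscle fibres build their filaments mainly from desmin, a client of the chaperone αB-crystallin. Gabrb2 encodes the β2 subunit of the GABA-A receptor, a chloride channel opened by the transmitter GABA and best known from brain. Clca6, which current annotation names Clca4a, belongs to the calcium-activated chloride channel regulators, secreted or membrane-bound proteins of epithelia. Apol8 belongs to the apolipoprotein L family of intracellular lipid-binding proteins. Rprml encodes reprimo-like, a small membrane protein related to reprimo, a target of p53 that halts the cell cycle.

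Both deleted genes stood with the genotype in the titles in all 12 samples. Cryab was between 411.6 and 837 FPKM in the WT samples and between 0.845 and 1.75 FPKM in the KO samples, and Hspb2 was between 81.5 and 103.1 FPKM in WT and between 0.353 and 1.92 FPKM in KO. Skeletal muscle markers summed to between 45592 and 94372 FPKM in every sample, although Acta1, skeletal actin, was listed at 0 in 2 samples, and Myh4, a fast myosin, was listed at 0 in all 12, so a listed 0 need not mean that a transcript was missing. Transcripts of B and T cells stood apart in replicate 2 of WT on chow and in replicates 1 and 3 of KO on chow, where 6 markers summed to 57.6, 64.4 and 63.9 FPKM against at most 5.17 FPKM in the other 9 samples. The number of reads is unknown, and the step between low values put the relative depth of the samples between 1 and 1.35. Replicate 3 of KO on chow, the highest KO sample for 5 of the 6 genes, stood apart in its FPKM total of 10656400, which was 484182 without the single gene Mir324, against 499509 to 691621 in the other 11 samples.

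In the GENCODE M21 annotation of mouse build GRCm38, the 6 genes lie on chromosomes 3, 11 and 15, and the deleted locus lies on chromosome 9. Rprml spans chr11:103649570-103650579 on the plus strand and Gabrb2 spans chr11:42419757-42629028 on the plus strand. Clca6 spans chr3:144952480-144975045 on the minus strand, and Apol8 spans chr15:77747798-77757003 on the minus strand. Krt8, at chr15:101996698-102004482 on the minus strand, and Krt18, at chr15:102028180-102032027 on the plus strand, stand 23698 bp apart and point away from each other. Gm36026 overlaps Krt8, and Gm16233 and Gm35066 overlap Clca6. The library kit did not keep strand, so reads of these overlapping genes cannot be told apart from those of Krt8 and Clca6.

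The promoters of Krt8 and Krt18, which moved together from mouse to mouse, and of Rprml, which moved apart from them, are printed here. They run 5′ to 3′ over 280 bases, from 250 before to 30 after the RefSeq start in build GRCm38.p6, and capitals mark the motifs that were found. Krt8 is at chr15:102004313-102004592 on the minus strand, Krt18 is at chr15:102027966-102028245 on the plus strand and Rprml is at chr11:103649259-103649538 on the plus strand.
Krt8: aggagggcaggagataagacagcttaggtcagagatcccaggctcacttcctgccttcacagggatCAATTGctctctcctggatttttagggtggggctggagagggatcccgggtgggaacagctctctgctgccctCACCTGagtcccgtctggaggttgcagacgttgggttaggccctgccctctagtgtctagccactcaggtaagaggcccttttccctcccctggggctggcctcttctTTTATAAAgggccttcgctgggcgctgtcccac
Krt18: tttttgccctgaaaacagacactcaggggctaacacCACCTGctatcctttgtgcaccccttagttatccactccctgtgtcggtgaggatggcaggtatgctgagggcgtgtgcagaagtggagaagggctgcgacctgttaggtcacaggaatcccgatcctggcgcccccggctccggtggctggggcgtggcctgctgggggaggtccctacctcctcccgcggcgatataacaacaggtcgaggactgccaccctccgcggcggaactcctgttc
Rprml: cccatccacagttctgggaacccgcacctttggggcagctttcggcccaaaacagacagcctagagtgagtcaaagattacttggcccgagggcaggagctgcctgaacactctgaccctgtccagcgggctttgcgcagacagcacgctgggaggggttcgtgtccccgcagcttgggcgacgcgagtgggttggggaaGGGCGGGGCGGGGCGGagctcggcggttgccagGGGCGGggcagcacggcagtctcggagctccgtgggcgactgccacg
The motifs searched on both strands were the TATA box TATAAA, the GC box GGGCGG, the E box CANNTG, the CCAAT box CCAAT, the MCAT element CATTCC and the core of the heat shock element GAANNTTC. Krt8 held a TATA box at its start, read on both strands over 8 shared bases, as did 13.1% of 32851 RefSeq promoters in at least 1 copy. Krt8 held 2 E boxes and Krt18 held 1 E box, the CACCTG that both windows share, and 70.1% of promoters held an E box. Rprml held 4 GC boxes, of which 3 overlap end to end, where 34.7% of promoters held at least 1, and its window was 67.1% G and C against a median of 52.5% over all promoters. The first of 3 Gabrb2 starts held a TATA box, a GC box and an E box, Apol8 held 1 E box, and no promoter of Clca4a was in the table. The heat shock core was in none of these windows and in 7.38% of all promoters. These matches describe letters in a window of fixed length and not bound sites.

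Krt18 was the more abundant of the 2 paired keratins. It was 0.208, 0.0787 and 0.0821 FPKM in WT on chow and 0.205, 0.264 and 0.151 FPKM in WT on high fat diet. In KO it was 0.469, 1.34 and 8.79 FPKM on chow. On the other diet KO samples were at 1.09, 3.83 and 0.555 FPKM. Every KO sample was above every WT sample, yet replicate 3 of KO on chow held 83% of the sum of its group and was 18.7 times the lowest sample of that group. On the log2(FPKM + 1) scale, which understates differences of low genes, KO was above WT by 1.53 ± 0.59 (SE, n = 3 each) on chow and by 1.05 ± 0.59 on high fat diet. Without the highest KO sample of the diet these were 0.72 and 0.58.

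Krt8, the partner of Krt18, followed the same samples at a lower level. It was 0.0968, 0.0644 and 0 FPKM in WT on chow and 0.0718, 0.119 and 0.0204 FPKM in WT on high fat diet. In KO it was 0.0720, 0.309 and 3.41 FPKM on chow. On the other diet KO samples were at 0.181, 1.48 and 0.118 FPKM. The groups overlapped on both diets, since replicate 1 of KO on chow and replicate 3 of KO on high fat diet were within the WT range, and replicate 3 of KO on chow held 90.0% of the sum of its group. KO was above WT by 0.80 ± 0.47 on chow and by 0.47 ± 0.47 on high fat diet on the log2(FPKM + 1) scale, and these fell to 0.17 and 0.10 when the highest KO sample of the diet was left out. The ratio of Krt18 to Krt8 FPKM was 2.58 in each of the KO samples where both keratins were highest and between 4.33 and 6.52 in the other 4 KO samples.

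Clca6 was listed at 0 in 2 WT samples and was low in the other 4. It was 0.0311, 0 and 0 FPKM in WT on chow and 0.0751, 0.136 and 0.0129 FPKM in WT on high fat diet. In KO it was 0.219, 1.07 and 6.75 FPKM on chow. On the other diet KO samples were at 1.57, 2.41 and 0.514 FPKM. All KO samples were above all WT samples, with a spread of 30.8 times within KO on chow and of 4.68 times within KO on high fat diet. The difference between KO and WT was 1.41 ± 0.53 on chow and 1.14 ± 0.53 on high fat diet on the log2(FPKM + 1) scale, and the first was 0.65 without replicate 3 of KO on chow.

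Gabrb2 was 0.0895, 0.0325 and 0.0207 FPKM in WT on chow and 0.0355, 0.0434 and 0.00616 FPKM in WT on high fat diet. In KO it was 0.250, 0.618 and 2.18 FPKM on chow. On the other diet KO samples were at 0.350, 0.807 and 0.475 FPKM. The genotypes did not overlap, and the mean in KO was 21.3 times that in WT on chow and 19.2 times on high fat diet, or 0.83 ± 0.27 and 0.58 ± 0.27 on the log2(FPKM + 1) scale. Without replicate 3 of KO on chow the difference on that diet was 0.44. Even so the receptor subunit stayed low, with a mean over the 6 KO samples of 0.779 ± 0.712 FPKM (SD, n = 6), which is above 35.3% of the genes detected in any sample.

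Apol8 was 0.0255, 0.0454 and 0.0236 FPKM in WT on chow and 0.224, 0.05 and 0.171 FPKM in WT on high fat diet. In KO it was 0.266, 0.605 and 1.40 FPKM on chow. On the other diet KO samples were at 0.617, 1.27 and 0.715 FPKM. All KO samples were above all WT samples, and the KO samples lay closer together than those of the keratins and Clca6, within 5.29 times on chow and 2.07 times on high fat diet. The difference was 0.72 ± 0.20 on chow, or 0.47 without replicate 3 of KO on chow, and 0.69 ± 0.20 on high fat diet on the log2(FPKM + 1) scale.

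Rprml differed from the other 5 genes in that it was expressed above 0.8 FPKM in WT muscle and varied little within a group. It was 0.954, 1.5 and 1.34 FPKM in WT on chow and 1.07, 0.836 and 1.24 FPKM in WT on high fat diet. In KO it was 4.17, 3.18 and 3.88 FPKM on chow. On the other diet KO samples were at 2.38, 1.66 and 1.53 FPKM. The highest group was KO on chow, followed by KO on high fat diet without overlap, whereas the lowest sample of KO on high fat diet, at 1.53 FPKM, was next to the highest of WT on chow, at 1.5 FPKM, and the 2 WT groups overlapped. Its coefficient of variation was between 13.6% and 24.7% in the 4 groups, against 129.5% for Krt18 in KO on chow. KO was above WT by 1.07 ± 0.14 on chow and by 0.47 ± 0.14 on high fat diet on the log2(FPKM + 1) scale.

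**Figure D1:**
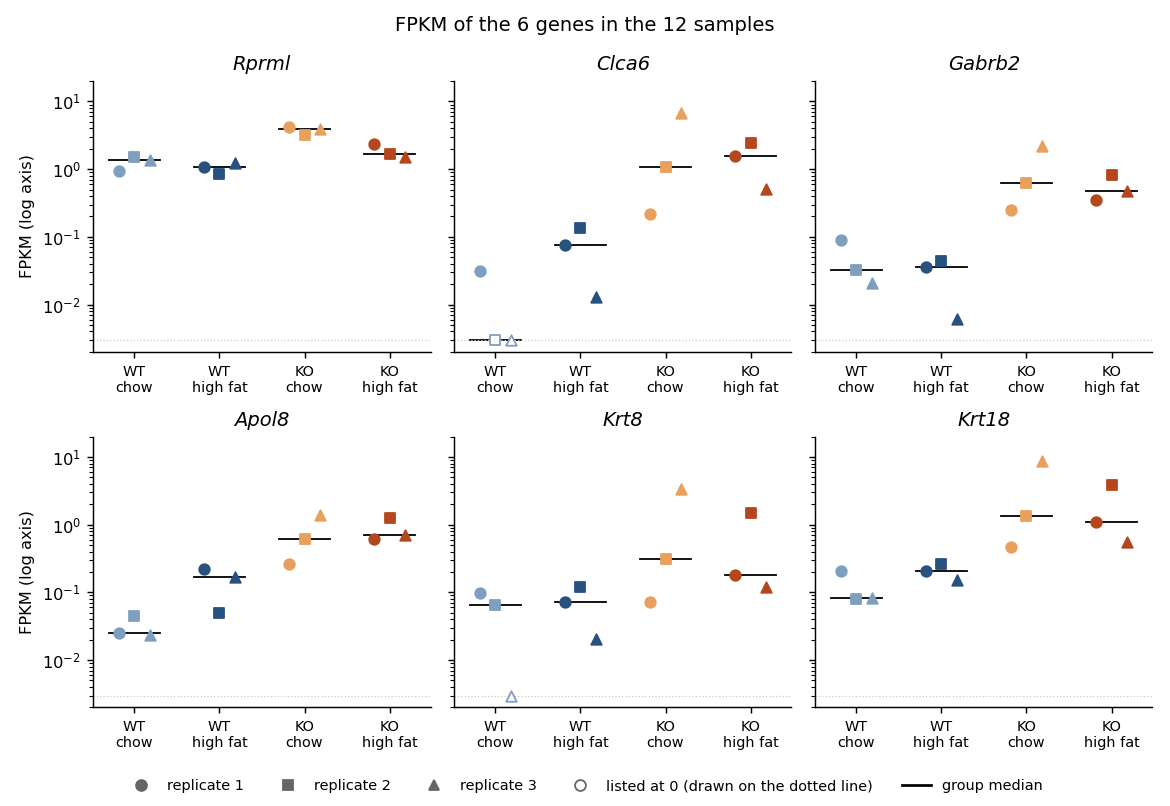
FPKM (log axis) of the 6 genes in each of the 12 samples by group, with the marker shape for the replicate and a line at the group median, and samples listed at 0 drawn open on the dotted line. Krt18, Clca6, Gabrb2 and Apol8 in KO lie above all WT samples over a wide range, Krt8 overlaps with WT, and Rprml lies in tight groups with KO on chow highest, between 3.18 and 4.17 FPKM.

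All 3 KO samples were above all 3 WT samples for 5 of the 6 genes on chow and for the same 5 genes on high fat diet, Krt8 being the exception on both. Among the 18589 genes above 0 in any sample, 7.72% were arranged in this way on chow, 10.7% on high fat diet and 2.49% on both. Since the 6 genes were chosen for this direction, nothing is read from their share. Without the 3 samples rich in B and T cell transcripts, which leaves 1 KO sample on chow, the chow difference on the log2(FPKM + 1) scale was 0.97 for Rprml, 1.02 for Clca6, 0.62 for Gabrb2, 0.65 for Apol8, 0.32 for Krt8 and 1.03 for Krt18. All 6 thus stayed above 0, and that of Krt8 was less than its SE of 0.43.

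The highest, second highest and lowest KO samples were the same for 5 of the 6 genes. The other KO samples took ranks 3 to 5 in orders that differed between genes. Replicate 3 of KO on chow was the highest KO sample for all 5 of Krt8, Krt18, Clca6, Gabrb2 and Apol8, replicate 2 of KO on high fat diet was the second highest for all 5, and replicate 1 of KO on chow was the lowest for all 5. That lowest sample held between 2.11% of the highest value for Krt8 and 18.9% for Apol8. Rprml did not share this order, and replicate 1 of KO on chow was its highest sample.

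**Figure D2:**
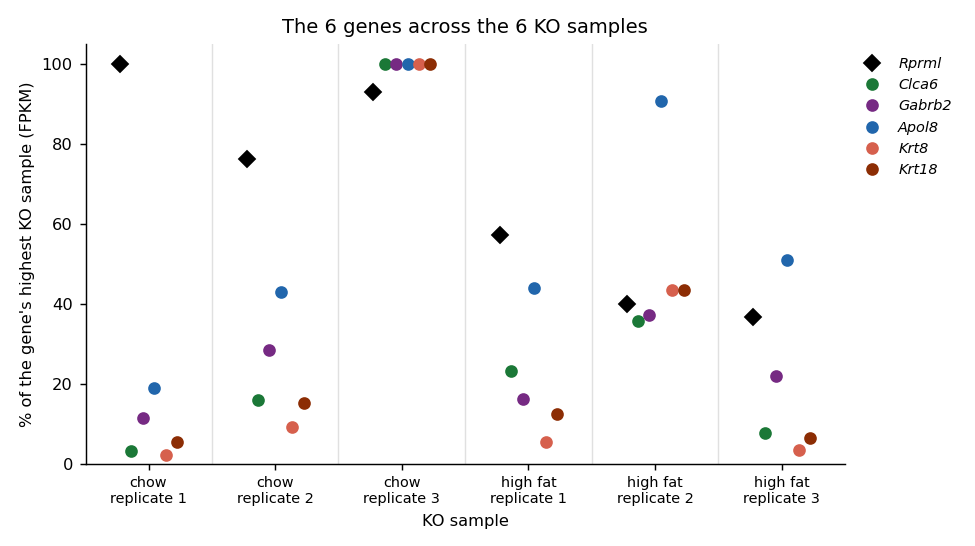
Value of each of the 6 genes in the 6 KO samples as a percent of the highest KO sample of that gene (linear axis from 0). Krt8, Krt18, Clca6, Gabrb2 and Apol8 peak together in replicate 3 on chow, with replicate 2 on high fat diet next, at between 35.7% and 90.8%, while Rprml (diamonds) is highest in replicate 1 on chow.

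Deviations from the group means on the log2(FPKM + 1) scale over the 12 samples put numbers on this likeness, which is given as a description with no test. Among the 10 pairs of these 5 genes Pearson's r was between 0.89 and 0.99, highest for Krt8 with Krt18, and Spearman's rho was between 0.48 and 0.98. Between Rprml and each of the 5 genes r was between -0.16 and 0.044, and between -0.67 and -0.12 without replicate 3 of KO on chow. Without replicate 3 of KO on chow, r among the 5 genes was between 0.68 and 0.97, and without that sample and replicate 2 of KO on high fat diet it was between 0.37 and 0.96, so the lower part of the range rests on these 2 samples. In these settings rho was between 0.36 and 0.95 and between -0.018 and 0.96, and without both samples r of Rprml with the 5 genes was between -0.75 and 0.029. Points share their libraries, and WT values near 0 carry little weight.

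The genes most like each of the 6, out of 11945 genes that passed the filter, were found by the same measure. Tmem62, a membrane protein, was among the 3 most similar for Clca6 (r = 0.98), Gabrb2 (r = 0.94), Krt8 (r = 0.96) and Krt18 (r = 0.98). Krt18 was also most like Cx3cl1, the chemokine fractalkine (r = 0.97), and Krt8 was like Panx1, which forms pannexin channels (r = 0.97). Clca6 was like Rab15, a small GTPase of endosomes (r = 0.96), and Gabrb2 was like 4930555G01Rik (r = 0.98). Apol8 was like Casq2, the calcium-binding calsequestrin of slow and cardiac muscle (r = 0.98), Fam105b (r = 0.96) and Ankrd1, a stretch-responsive partner of titin (r = 0.96). Rprml was most like Efnb1, an ephrin ligand (r = 0.94), Smurf1, a ubiquitin ligase (r = 0.94), and Suv39h1, a histone methyltransferase (r = 0.92).

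These similar genes differed in how their KO and WT levels compared. Ankrd1 was between 1.04 and 7.13 FPKM in WT and between 9.95 and 91.3 FPKM in KO, and Cx3cl1 was between 0.823 and 1.69 FPKM in WT and between 3.22 and 16.6 FPKM in KO. For both, no samples of the genotypes overlapped on either diet. Over both diets together, a comparison added after the data were seen, Ankrd1 rose in KO by 3.09 ± 0.47 (SE) and Cx3cl1 rose by 2.01 ± 0.29 on the log2(FPKM + 1) scale, and both passed in limma (adjusted p = 0.0206 and 0.0186), as did 0.862% of all genes tested. Without the 3 samples rich in B and T cell transcripts the adjusted p was 0.0765 for Ankrd1 and 0.0162 for Cx3cl1, with differences of 2.96 and 1.98. Without replicate 1 of WT on chow it was 0.0636 and 0.0594, without replicate 2 of KO on high fat diet it was 0.0538 for both, and without replicate 1 of KO on high fat diet that of Ankrd1 was 0.0506. On single diets neither passed, with adjusted p-values of 0.193 and 0.195 on chow and 0.0923 and 0.0751 on high fat diet. Efnb1, Smurf1 and Suv39h1, the genes most like Rprml, differed between KO and WT by -0.0076, 0.074 and -0.021 on the same scale and did not pass. Myh3, the embryonic myosin heavy chain of forming fibres, was looked at after its values were seen, and was between 0.235 and 1.38 FPKM in WT and between 1.74 and 10.1 FPKM in KO, highest in replicate 3 on chow and next in replicate 2 on high fat diet.

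**Figure D3:**
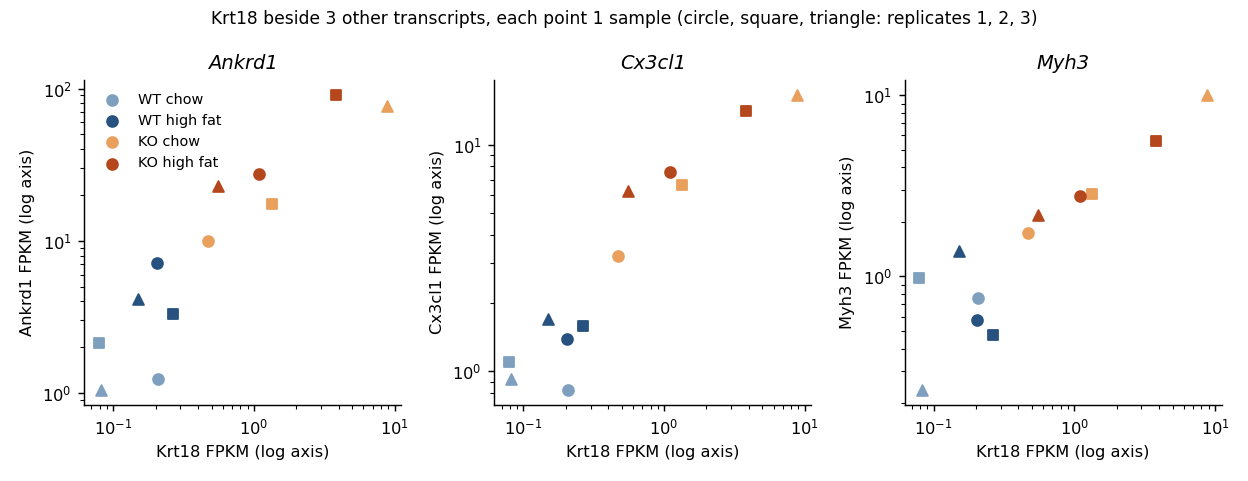
Krt18 against Ankrd1, Cx3cl1 and Myh3 in the 12 samples (FPKM on log axes, colours for groups and shapes for replicates). The KO samples with most Krt18, at 8.79 and 3.83 FPKM, are also the highest 2 for each of the other genes, and the WT samples lie together at the lower left.

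Diet averaged over both genotypes was the comparison that the choice of the genes did not use. In limma over both genotypes, 7 genes passed an adjusted p of 0.05 for high fat diet against normal chow (0.0586% of genes tested, or 0.0484% without the filter), and none of the 6 genes was among them. Rprml was lower on high fat diet in KO mice, where the mean on chow was 2.01 times that on high fat diet. The difference was -0.74 ± 0.14 (SE), with an adjusted p of 0.161. All 3 KO samples on chow were above all 3 on high fat diet. The share of all genes so arranged by diet was not counted, so nothing is read from this. In WT mice the difference of Rprml was -0.14 ± 0.14, with overlapping samples and an adjusted p of 0.869. Within WT mice 0.1% of all genes tested passed, and within KO mice 0 passed by limma (0%), with 1349 (11.3%) at an unadjusted p under 0.05. The difference between these effects was -0.60 ± 0.20, with an adjusted p of 0.672, so a stronger effect of diet in KO was not shown. In that comparison 0 genes passed in limma (0%), or 1 without the filter, and 746 genes, or 6.25%, had an unadjusted p under 0.05. The diet effects within KO and within WT each use values behind the choice. The difference between these diet effects equals the difference between the KO to WT differences used for the choice. A choice for higher values in KO on both diets favours a small value of it, so its test is not free of the choice.

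The other 5 genes showed no shared direction with diet. In KO mice the high fat diet differences were -0.19 ± 0.53 for Clca6, -0.28 ± 0.27 for Gabrb2, 0.12 ± 0.20 for Apol8, -0.31 ± 0.47 for Krt8 and -0.37 ± 0.59 for Krt18, with adjusted p-values between 0.702 and 0.888. Diet differences in WT mice were between -0.026 and 0.15, with adjusted p-values between 0.907 and 1. The errors of Clca6, Krt8 and Krt18 are wide, and an effect of the size seen for Rprml would lie within about 2 SE of each. Apol8 in WT mice was higher on high fat diet in all 3 samples, at 0.05 to 0.224 FPKM against 0.0236 to 0.0454 FPKM. At these levels few reads lie behind each value. The share of all genes so arranged by diet was not counted, so nothing is read from this.

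**Figure D4:**
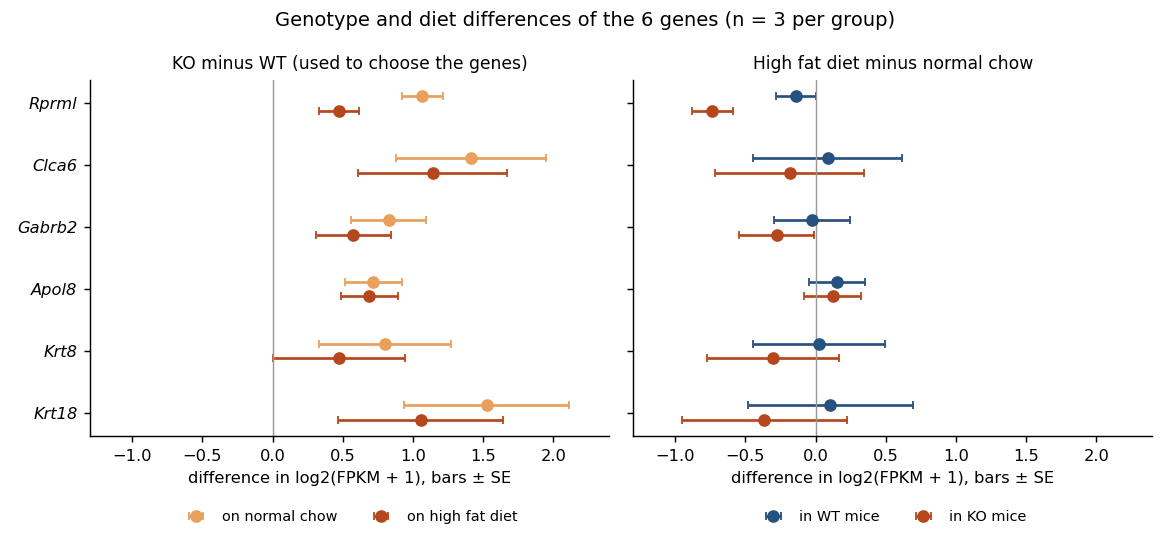
Differences of the 6 genes on the log2(FPKM + 1) scale, with bars for ± SE of the fit (n = 3 per group). The KO minus WT differences (left), used to choose the genes, lie above 0 on both diets, and among the diet differences (right) only that of Rprml in KO, at -0.74, lies further than 2 SE from 0.

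Relatives of each gene were counted from lists of the family or pathway. Over all genes tested in limma, 0.0586% passed the adjusted threshold for KO against WT on chow and 0.109% on high fat diet. The share with an unadjusted p under 0.05 was 6.73% for genes higher in KO and 9.93% for genes lower in KO on chow, and it was 9.79% and 6.45% on the high fat diet. The median difference over all genes tested was -0.025 on chow and -0.011 on high fat diet. Beside Krt8 and Krt18, 6 other keratins were listed with them, of which Krt80 and Krt222 passed the filter. Of these, 0 passed the adjusted threshold in limma on either diet, with 1, Krt80, higher at an unadjusted p under 0.05 on chow. Krt80 reached 1 FPKM in KO samples alone, so it could pass the filter only by being higher there, and nothing is read from its call or from the list. Krt80 was between 0.517 and 0.863 FPKM in WT and between 0.965 and 3.08 FPKM in KO, and replicate 3 of KO on chow was again highest. Krt222, the more abundant, was between 1.22 and 2.26 FPKM in WT and between 0.975 and 1.998 FPKM in KO, and replicate 3 of KO on chow was its lowest sample. Krt19, another partner of Krt8, was between 0.408 and 0.826 FPKM in WT and between 0.216 and 1.28 FPKM in KO, without this order. Of the 8 genes of muscle filaments and their linkers all were tested, and 0 passed, with Des between 1738 and 3062 FPKM over all samples. At an unadjusted p under 0.05, 1 of them was higher and 1 lower on chow, and 3 were higher and 0 lower on high fat diet. Their median difference was -0.077 on chow and 0.31 on the latter diet. There 4 of the 8 had every KO sample above every WT sample, as did 13.0% of all genes tested. Of 14 desmosome genes 4 were tested and 0 passed, with 1 higher at an unadjusted p under 0.05 on each diet and medians of 0.076 and 0.18.

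The relatives of Gabrb2 and Clca6 were mostly below the filter or did not pass the test. Of 18 other GABA-A receptor subunits only Gabrr2 was tested, and it did not pass. It was between 0.680 and 0.988 FPKM in WT and between 0.667 and 0.829 FPKM in KO on chow, a difference of -0.047. For high fat diet it was between 0.493 and 1.32 FPKM in WT and between 1.49 and 1.77 FPKM in KO without overlap, a difference of 0.61 with an adjusted p of 0.112 in limma, though mostly these KO samples brought it past the filter. Gabra6, the neighbour of Gabrb2 at 98685 bp, was listed at 0 in all 12 samples. Of 14 genes of GABA synthesis, transport and anchoring 9 were tested and 0 passed, with medians of -0.14 on chow and -0.030 on high fat diet. None of the 6 other Clca genes in the files passed the filter, and all 6 stayed under 1.3 FPKM, while Clca4, singled out after its values were seen, was listed at 0 in all WT samples and lay between 0.0219 and 0.181 FPKM in KO. Clca genes are close copies of each other, so reads may have been split between them. Of 23 other chloride channel genes 12 were tested and 0 passed, with 2 lower at an unadjusted p under 0.05 on each diet and medians of -0.13 and 0.016.

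Of 13 other apolipoprotein L genes 2, Apol6 and Apold1, were tested and 0 passed, with medians of 0.23 on chow and -0.40 on high fat diet. Apol6, the most abundant of the 13, was between 16.0 and 29.2 FPKM in WT and between 27.9 and 35.6 FPKM in KO, and differed by 0.51 over both diets with an adjusted p of 0.0671. On high fat diet Apol6 was between 17.5 and 29.2 FPKM in WT and between 29.6 and 35.6 FPKM in KO. Apold1 was between 0.611 and 11.5 FPKM in WT on that diet, highest in replicate 2, and between 0.628 and 1.06 FPKM in KO. The 2 genes went opposite ways there, so the median of -0.40 describes neither. Apol9b, 11416 bp from Apol8, was between 0 and 0.141 FPKM in WT and between 0.0289 and 0.338 FPKM in KO, with overlap.

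Reprimo itself, Rprm, was at most 0.132 FPKM in any sample and did not follow Rprml. Of 18 other genes on the list of reprimo and p53 targets 16 were tested, and 0 passed on either single diet, with 8 higher at an unadjusted p under 0.05 on chow and 3 higher and 1 lower on high fat diet. Their median difference was 0.34 on chow and 0.16 on high fat diet, beside the -0.025 and -0.011 over all genes tested. Of all genes tested, 6.73% were higher at that p on chow, and 9.79% were higher and 6.45% lower on high fat diet. Over both diets together 2 of the 16 genes rose in KO past the adjusted threshold in limma, as did 0.645% of all genes tested. Cdkn1a, the cell cycle inhibitor p21, was between 7.02 and 13.3 FPKM in WT and between 17.4 and 50.7 FPKM in KO, with an adjusted p of 0.0245. Eda2r, a receptor of the tumour necrosis factor family, was between 2.51 and 5.24 FPKM in WT and between 5.50 and 12.5 FPKM in KO, with an adjusted p of 0.0455. Without the 3 samples rich in B and T cell transcripts these p-values were 0.223 and 0.210, with differences of 1.43 and 1.11 against 1.48 and 1.05 over all samples. Both genes also missed the threshold without replicate 1 of WT on chow (0.0882 and 0.126), replicate 1 of WT on high fat diet (0.0508 and 0.0841), replicate 3 of KO on chow (0.0528 and 0.0867), replicate 1 of KO on high fat diet (0.0675 and 0.0926) or replicate 2 of KO on high fat diet (0.0694 and 0.106), and Eda2r did so without replicate 3 of WT on chow (0.0828). Both genes were high in replicate 3 of KO on chow and replicate 2 of KO on high fat diet, as the keratins were. Among the KO samples, Rprml was at rank 2 in the first of these, at 3.88 FPKM, but at rank 5 in the second, at 1.66 FPKM. Mdm2, another p53 target, was between 18.2 and 24.3 FPKM in all samples.

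Of 12 genes on the list of titin-linked stress all were tested, and 0 passed on a single diet, while 1, Ankrd1, passed over both diets as given above. At an unadjusted p under 0.05, 3 were higher and 2 lower on chow and 4 higher on high fat diet, with medians of 0.077 and 0.00028. The shares over all genes tested were 6.73% higher and 9.93% lower on chow and 9.79% higher on high fat diet.

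Few genes next to the 6 genes on the chromosome could be tested. Within 200 kb of their ends, by names shared with the files, lay 32 other genes, of which 12 passed the filter, and 0 of these passed the adjusted threshold in limma on chow or high fat diet, with 2 higher at an unadjusted p under 0.05 on chow and 1 on high fat diet. Their median difference was 0.036 on chow and 0.14 on high fat diet. Of all genes tested, 6.73% were higher at that p on chow and 9.79% on high fat diet. Beside Rprml, Gosr2 at 26270 bp differed by -0.095 on chow and 0.15 on high fat diet and Nsf by -0.055 and -0.015. Beside Apol8, Myh9 at 3584 bp differed by 0.31 and 0.14, Txn2 by -0.18 and -0.24, and Foxred2 by 0.38 and 0.47. Beside the keratins, Eif4b at 41746 bp from Krt18 differed by -0.18 and -0.11, Spryd3 by 0.053 and 0.18, Igfbp6 by 0.39 and 0.29, Csad by 0.75 and 0.34, Zfp740 by -0.050 and -0.045, and Itgb7 by 0.71 and 0.66. Replicate 2 of WT and replicates 1 and 3 of KO on chow are the samples rich in B and T cell transcripts. In them Itgb7 was 7.72 to 9.18 FPKM and Csad 8.28 to 12.1 FPKM. In the other chow samples they were 1.67 to 2.53 and 3.69 to 6.76 FPKM. The part of these cells in the chow differences was not tested. Foxred2 reached 1 FPKM in KO samples alone and so passed the filter through KO. The Clca genes beside Clca6 carry other names in the annotation than in the files and were not counted, and of the rest Odf2l, at 143543 bp, differed by 0.019 and 0.025.

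Markers of cell types in which keratins and Clca genes are usual were low. The 7 markers of simple epithelium summed to between 0.984 and 2.39 FPKM in WT and between 0.683 and 2.44 FPKM in KO, and 5 of them, Epcam, Krt7, Cldn4, Cldn7 and Elf3, were under 1 FPKM in every sample. Replicate 3 of KO on chow, with the most Krt18, had 1.83 FPKM of these markers, less than replicates 1 and 2 of its group. The 5 mesothelial markers summed to at most 1.65 FPKM, with Upk1b at 0 in every sample, and that highest sum was in replicate 3 of KO on chow. Of the 6 keratinocyte markers, Krt5 was listed at 0 in all 6 KO samples, and their sums of 6.04 to 13.2 FPKM in KO came mostly from Trp63, at 4.82 to 11.7 FPKM in KO and 3.19 to 4.82 FPKM in WT. Krt5, Krt14 and Lor stood out in replicate 2 of WT on high fat diet, at 3.46, 1.66 and 2.23 FPKM, where Krt18 was 0.264 FPKM.

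Macrophage marker sums in KO muscle lay above those in WT muscle, and adipocyte marker sums did so on chow. The 4 adipocyte markers summed to between 100.3 and 657.9 FPKM in WT on chow and between 749 and 1612 FPKM in KO on chow, and to between 5.10 and 301.5 FPKM against 255.1 and 368.3 FPKM on high fat diet. The chow sums were mostly Cfd, at 69.1 to 468.8 FPKM in WT and 576.8 to 1329 FPKM in KO. On chow Cfd and Plin1 had every KO sample above every WT sample, as did 8.15% of all genes tested. Adipoq and Lep overlapped there, with Lep at 3.43 to 30.8 FPKM in WT and 11.8 to 42.6 FPKM in KO. The 3 macrophage markers found summed to between 9.03 and 36.2 FPKM in WT and between 40.1 and 81.4 FPKM in KO, without overlap. None of these 7 genes passed the adjusted threshold, with 1 and 6 of them higher at an unadjusted p under 0.05 on chow and high fat diet. Of all genes tested, 6.73% and 9.79% were higher at that p on these diets. Of the 8 myogenic and denervation markers 7 were tested and 0 passed, with 4 higher and 1 lower at an unadjusted p under 0.05 on chow and 5 higher on high fat diet. Myh3 and Runx1, counted as higher on both diets, reached 1 FPKM in all 6 KO samples and in 1 and 2 WT samples, so they passed the filter through KO. The medians of the 7 tested markers were 0.63 and 0.80. The shares over all genes tested were 6.73% higher and 9.93% lower on chow and 9.79% higher on high fat diet. The part of these cell types in the values of the 6 genes was not tested. The sums of B and T cell markers were alike in replicates 1 and 3 of KO on chow, which were the lowest and the highest KO samples for Krt8, Krt18, Clca6, Gabrb2 and Apol8.

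**Figure D5:**
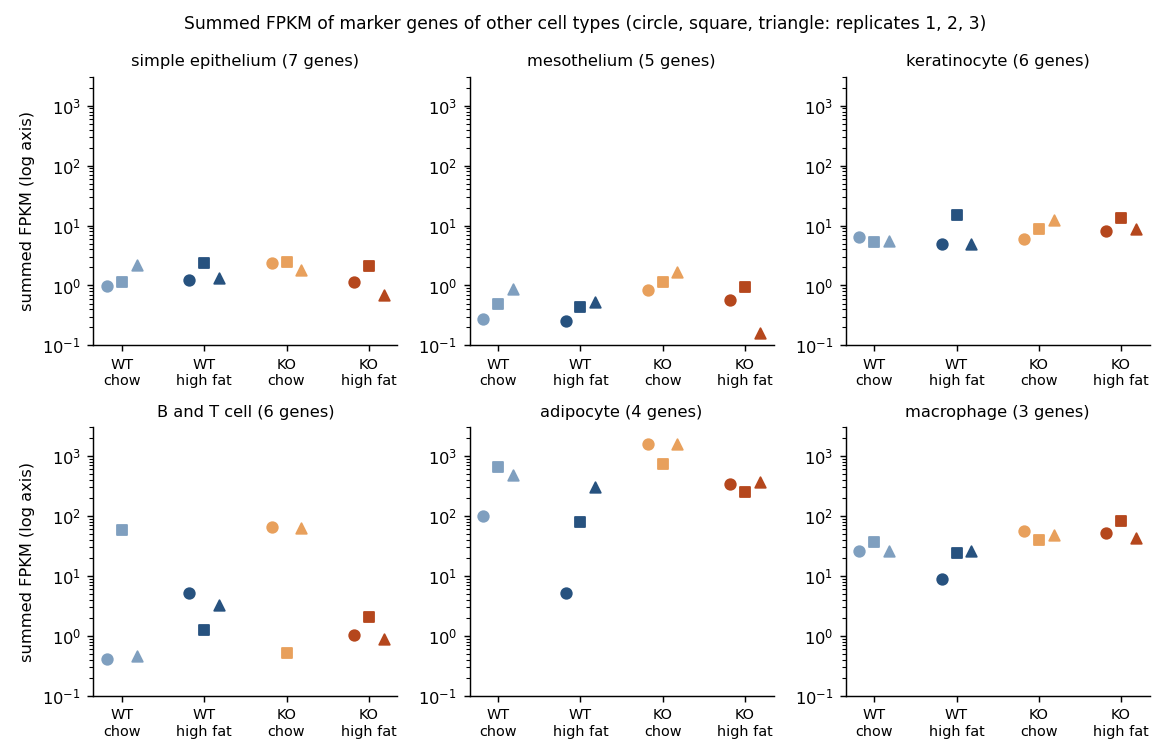
Summed FPKM (log axis) of marker genes of 6 cell types in the 12 samples, with shapes for replicates. Epithelial and mesothelial sums stay at or under 2.44 FPKM in every sample, B and T cell sums are high in 3 samples on chow, and macrophage sums of KO lie above those of WT.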

How the data were processed

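RNA of 12 muscle samples was sequenced with paired-end reads from a library kit that does not keep strand. The submitters' processing notes name TopHat2 2.0.8b, Cuffdiff 2.1.1 and build mm10, and the authors deposited 1 FPKM value per gene symbol and sample. Each file held 23179 rows, and for repeated symbols the row of highest mean was used. The 6 genes and all lists were chosen with earlier results of these data known. The 11945 genes that reached 1 FPKM in 3 or more samples were tested on log2(FPKM + 1) with limma 3.58.1 in R 4.3.3, with a variance trend, 4 group means, 8 residual degrees of freedom and Benjamini-Hochberg adjustment at 0.05. Gabrb2, Apol8 and Krt8 were taken from the same fit over the 18589 genes above 0 in any sample. P-values measure the spread between these samples only. Named genes were the 6 genes, Cryab and Hspb2, the neighbours within 200 kb, the list genes past the threshold or otherwise among the 3 of highest mean, and the 3 genes most like each of the 6 by Pearson's r of deviations from group means. Myh3, Gabra6, Clca4, Apol9b, Mdm2 and Rprm were added after their values were seen. Promoters are from RefSeq, where 5 of the 6 genes matched. Alternatives are listed in the closing section. Python 3.11.15, NumPy 2.4.6, pandas 2.3.3 and matplotlib 3.10.9 were used for the other values.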

Additional observations from a re-analysis of the deposited data

How the results depend on the processing

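All values here are on the log2(FPKM + 1) scale or counts of genes with an adjusted p under 0.05 in limma. Depth in reads is unknown, and genes under about 1 FPKM, which includes every WT value of Clca6, Gabrb2, Apol8, Krt8 and Krt18, rest on few reads. Of 12 settings that left out 1 sample, none turned a KO to WT difference of the 6 genes, and none of the settings below brought a diet or interaction result of the 6 genes past the threshold. The cause of the shifts below was not tested.

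The count of genes called was 7 for genotype on chow, 13 for genotype on high fat diet, 7 for diet, 0 for the interaction and 103 for genotype over both diets, and it moved with most settings. Without the filter it was 24 for genotype on high fat diet, 1 for the interaction and 42 over both diets. With quantile normalization it was 26 on high fat diet and 200 over both diets. With only the 2 groups compared it was 4 on chow and 8 on high fat diet. Without the 3 samples rich in B and T cell transcripts, added after the data were seen, it was 1 for diet and 11 for genotype over both diets. With each sample left out in turn it lay between 4 and 14 on chow, 4 and 82 on high fat diet, 1 and 18 for diet, 0 and 1 for the interaction, and 10 and 1200 for genotype over both diets, the last without replicate 2 of KO on chow.

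With the replicate number as a block the counts were 4 on chow, 5 on high fat diet, 1 for diet, 0 for the interaction and 40 over both diets, and the adjusted p of Eda2r was 0.0725. Deviations of same-numbered samples correlated between -0.81 and 0.39. Differently numbered samples were not compared, so whether the numbers pair the samples cannot be told from this.

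With a pseudocount of 0.1 the KO to WT differences on chow and high fat diet were 1.51 and 0.76 for Rprml, 3.64 and 3.04 for Clca6, 2.52 and 2.28 for Gabrb2, 2.48 and 1.98 for Apol8, 2.08 and 1.47 for Krt8, and 3.17 and 2.26 for Krt18.

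With genotype from the conflicting label all counts but that of the interaction fell to 0, the count of the interaction being 0 as well. The differences on chow and high fat diet were then 0.77 and -0.48 for Rprml, -0.083 and -1.34 for Clca6, 0.041 and -0.47 for Gabrb2, 0.16 and -0.60 for Apol8, -0.35 and -0.66 for Krt8, and -0.057 and -1.31 for Krt18, and those over both diets were -0.46 for Cdkn1a, -0.47 for Eda2r, -0.68 for Ankrd1 and -0.52 for Cx3cl1. Cryab and Hspb2 stand with the titles.

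Some diet effects and interactions turned, and none of them passed the threshold. Clca6 was 0.31 with a pseudocount of 0.1, 0.012 with quantile normalization, 0.19 with the label and 0.14 without the 3 samples. Krt8 was 0.027 with the label and 0.11 without the 3 samples, and Krt18 was 0.038 with a pseudocount of 0.1, 0.10 with the label and 0.088 without the 3 samples. The interaction without the 3 samples was 0.12 for Clca6, 0.041 for Apol8, 0.15 for Krt8 and 0.024 for Krt18, and 0.049 for Apol8 with quantile normalization. With 1 sample left out, the diet effect lay between -0.34 and 0.33 for Clca6, -0.30 and 0.041 for Gabrb2, -0.34 and 0.17 for Krt8, and -0.41 and 0.27 for Krt18, and the interaction between -0.85 and 0.49 for Clca6, -0.54 and 0.13 for Gabrb2, -0.24 and 0.22 for Apol8, -0.72 and 0.30 for Krt8, and -1.04 and 0.33 for Krt18, each highest without replicate 3 of KO on chow. With 1 sample left out, the adjusted p over both diets reached 0.0882 for Cdkn1a, 0.126 for Eda2r, 0.0636 for Ankrd1 and 0.0594 for Cx3cl1.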
